A study of Mus musculus with 6 samples.

Results

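The immune checkpoint and costimulation genes described here are 9 rows of the expression table, chosen by name and not by their values, although earlier results of these data were known: Cd274 (PD-L1), Pdcd1lg2 (PD-L2), Cd80, Cd86, Cd40, Lgals9 (galectin-9), Havcr2 (TIM-3), Sirpa and Cd47. They were found, each once, among the 23473 RefSeq gene rows of a table of 56826 rows. The table holds bulk RNA-seq of tumor endothelial cells (TECs) captured with anti-CD31 beads. The tumors were Lewis lung carcinoma (LLC), a mouse lung cancer line inoculated under the skin, and grew in 3 control (Ctrl) and 3 NICeCA mice, a library from each mouse according to the methods. All were C57BL/6 mice, and the labels give an age of 8 weeks. Ctrl mice are labelled wild type, and the sources used here do not say which alleles or injections they had. NICeCA mice carry a tamoxifen-inducible Cre under the Cdh5 promoter, and a Rosa26 allele from which Cre releases the Notch1 intracellular domain, so that Notch signaling becomes active in endothelial cells without a ligand. According to the methods, tamoxifen was given at 100 mg/kg daily for 5 days to mice of 6 to 8 weeks, and these tumors were collected on day 14 after inoculation, while the labels speak of different days. Cells other than endothelial cells keep their own genotype in this model, and purity is put at over 90% in the labels, by Endomucin staining and uptake of acetylated LDL.

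T cells need a second signal besides their antigen receptor. CD80 and CD86 on antigen-presenting cells give it through CD28 and withhold it through CTLA-4, and CD40 receives help from CD40 ligand on activated T cells. PD-L1 and PD-L2 restrain T cells through PD-1, and galectin-9 is one of the ligands of TIM-3. CD47 on a target cell engages SIRPα on macrophages and restrains phagocytosis. CD80, CD86, CD40 and SIRPα are well known from macrophages and dendritic cells. TIM-3 is found on T cells as well as on these cells, and CD47 on most cells. PD-L1 is induced by interferon-γ in many cell types, endothelial cells included.

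Values are RPKM, reads scaled to the length of the gene model and to the total reads of the library, and can be compared between genes of different length. Differences are log2 fold changes on the log2(RPKM + 1) scale, NICeCA minus Ctrl, from limma's moderated test over the 12320 RefSeq rows with a mean of at least 1 RPKM, with Benjamini-Hochberg adjustment and a threshold of 0.05. RefSeq rows took 27793301 to 30769916 reads of a library, and a member had between 116 and 21031 reads in a library. Hey1, a direct Notch target, was higher in NICeCA (log2 fold change 1.10, limma adjusted p = 0.0412), and the row of Notch1 itself was not called (0.11, adjusted p = 0.713). The fractions held much RNA of other cells. Macrophage markers summed to 2740 to 3880 RPKM in Ctrl and 1800 to 3750 RPKM in NICeCA over 10 genes, of which 2 were called higher, and 14 endothelial markers summed to 237 to 611 and 522 to 680 RPKM, of which 2 were called higher. The log2 fold change was positive for 14 of the 14 endothelial markers, with a median of 0.66. By library, their sums were 611, 237 and 315 RPKM in Ctrl replicates 1 to 3 and 522, 680 and 628 RPKM in NICeCA replicates 1 to 3. Pecam1, which encodes CD31, stood at 47.5 to 135 RPKM in Ctrl and 125 to 154 RPKM in NICeCA. In such bulk libraries, fewer cells of a type and less RNA per cell cannot be told apart.

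The promoters of the genes whose levels or neighbours the results turn on are shown first. RefSeq promoters (GRCm38.p6, 250 bases before to 50 bases after the start) were found for 6 of the 9 members. They were searched on both strands for the RBPJ core GTGGGAA, the site of the Notch transcription complex, which 6.38% of 32851 promoters of this length held. The interferon-γ activated site TTCNNNGAA stood in 8.30% of them, the interferon-stimulated response element (GAAA, 2 bases of any kind, GAAA) in 3.44% and the NF-kB consensus in 4.51%. Capitals mark a match, and the 250 bases before the start are printed 5′ to 3′ on the strand of the gene. Cd274 lies at chr19:29367188-29367437 on the plus strand, Pdcd1lg2 at chr19:29410669-29410918 on the plus strand, Cd80 at chr16:38458683-38458932 on the plus strand, and Lgals9 at chr11:78984925-78985174 on the minus strand.
Cd274: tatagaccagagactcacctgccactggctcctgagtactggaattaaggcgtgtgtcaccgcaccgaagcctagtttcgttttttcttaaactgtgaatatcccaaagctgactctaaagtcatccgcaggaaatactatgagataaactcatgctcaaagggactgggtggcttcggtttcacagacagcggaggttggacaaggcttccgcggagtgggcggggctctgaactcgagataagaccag
Pdcd1lg2: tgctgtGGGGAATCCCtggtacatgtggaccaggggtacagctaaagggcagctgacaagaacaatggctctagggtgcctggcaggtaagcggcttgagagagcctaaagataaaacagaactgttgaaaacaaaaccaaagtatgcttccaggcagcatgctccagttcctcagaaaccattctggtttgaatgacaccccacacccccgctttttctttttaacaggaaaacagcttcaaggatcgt
Cd80: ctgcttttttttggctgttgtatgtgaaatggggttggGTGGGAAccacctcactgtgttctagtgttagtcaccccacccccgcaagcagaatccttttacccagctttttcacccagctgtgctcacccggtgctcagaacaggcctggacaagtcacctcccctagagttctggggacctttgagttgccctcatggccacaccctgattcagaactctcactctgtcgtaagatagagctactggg
Lgals9: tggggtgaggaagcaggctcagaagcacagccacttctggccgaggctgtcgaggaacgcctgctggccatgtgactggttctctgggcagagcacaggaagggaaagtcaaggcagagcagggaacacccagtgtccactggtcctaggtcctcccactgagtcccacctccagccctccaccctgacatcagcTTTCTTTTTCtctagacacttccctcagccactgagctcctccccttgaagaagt
In Pdcd1lg2 the NF-kB match spans bases -244 to -235 from the start, and in Cd80 the RBPJ match spans bases -212 to -206. Lgals9 holds the response element at -55 to -46 and a further copy at 16 to 25, beyond the printed stretch. None of the 4 motifs was found in the windows of Cd274, Havcr2 and Cd47. These matches are letters in a window and say nothing of binding in these cells.

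The PD-1 ligands, which are neighbours on chromosome 19, differed in their pattern. Cd274 spans chr19:29367438-29388094 in the table and Pdcd1lg2 starts 22825 bases after its end on the same strand. Cd274 stood at 16.5, 13.6 and 44.6 RPKM in Ctrl replicates 1 to 3 and at 49.4, 56.3 and 61.0 RPKM in NICeCA replicates 1 to 3. Each NICeCA library lay above each Ctrl library, although Ctrl replicate 3 came close to NICeCA replicate 1. The group means were 24.9 ± 17.1 and 55.6 ± 5.86 RPKM (SD, n = 3 each). The log2 fold change of Cd274 was 1.31 with a standard error of 0.38 and a 95% interval of 0.43 to 2.20, and its limma adjusted p of 0.057 missed the threshold.

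Pdcd1lg2 was the lowest of the 9 genes in each library. It stood at 2.05, 0.853 and 10.2 RPKM in Ctrl and at 3.14, 3.28 and 1.90 RPKM in NICeCA. The NICeCA values lay inside the range of the Ctrl values, which spanned 11.95-fold. Its log2 fold change was -0.10 with a standard error of 0.58 and an interval of -1.43 to 1.23, which leaves room for a change in either direction (limma adjusted p = 0.91).

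The pair was also compared as a ratio within each library, which depends on the scaling of the library only through the added 1. The log2 ratio of Cd274 to Pdcd1lg2, on RPKM + 1, was 2.52, 2.98 and 2.02 in Ctrl and 3.61, 3.74 and 4.42 in NICeCA. The 3 NICeCA ratios lay above the 3 Ctrl ratios, with a difference of 1.42 between means of 2.51 ± 0.48 and 3.92 ± 0.44. The exact two-sided permutation test gave p = 0.1, the smallest that 20 assignments of 3 against 3 libraries allow, and 0.133 after adjustment over the 4 pairs tested. The separation rested on the added 1, since Pdcd1lg2 stood below 1 RPKM in Ctrl replicate 2. On plain RPKM the log2 ratios were 3.01, 4.00 and 2.13 in Ctrl and 3.98, 4.10 and 5.01 in NICeCA, so that Ctrl replicate 2 and NICeCA replicate 1 overlapped (difference 1.32, exact two-sided permutation p = 0.2). An antisense transcript of the current annotation shares up to 285 exon bases with Cd274, and no source used here gives the strand setting of the counting.

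**Figure D1:**
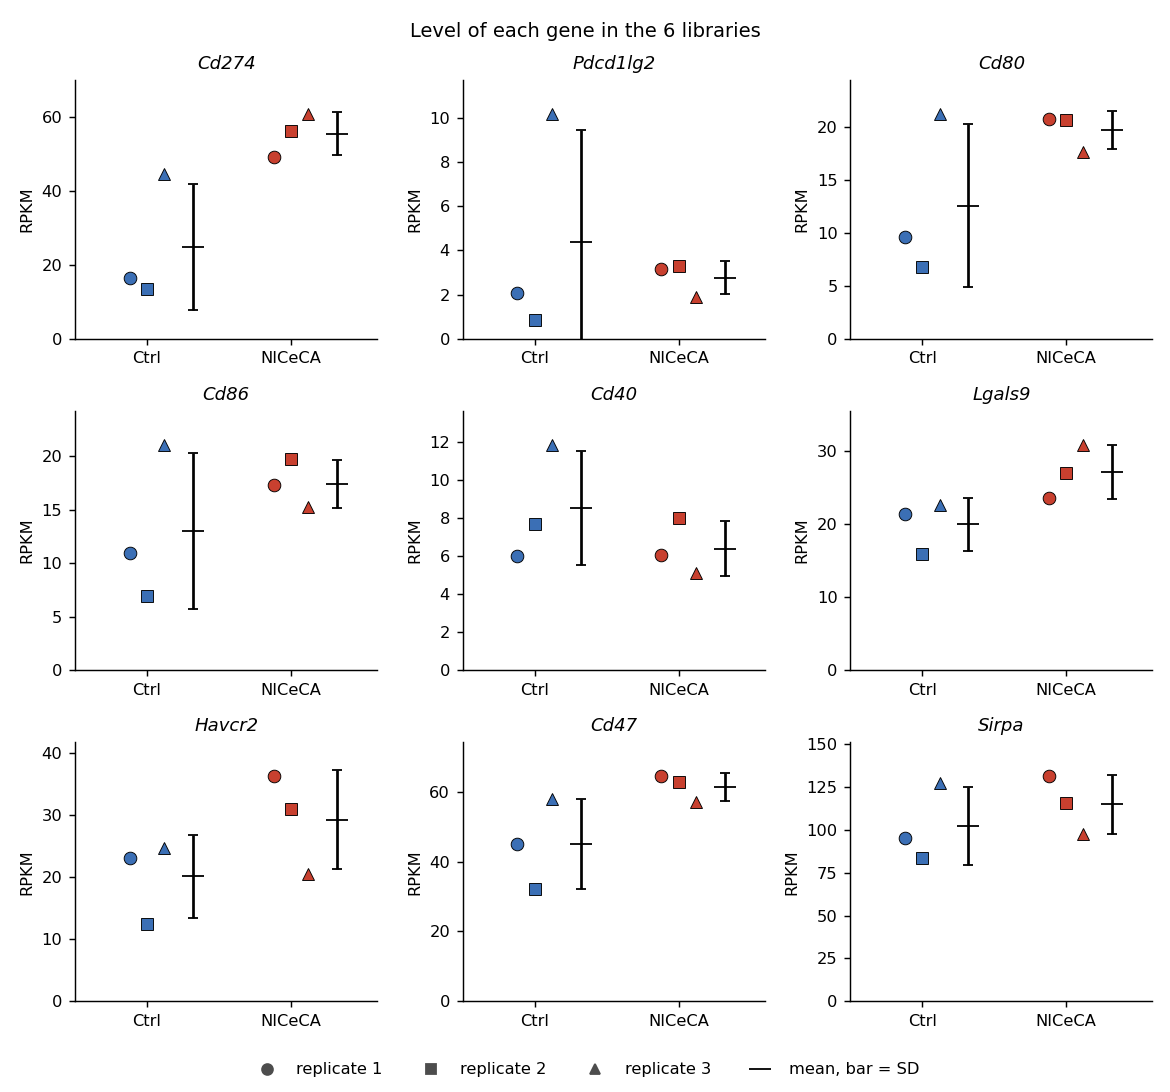
RPKM of each of the 9 genes in the 3 Ctrl (blue) and 3 NICeCA (red) libraries, with symbols for the replicate number and the mean with its SD beside the points (the lower SD bar of Pdcd1lg2 in Ctrl ends at the axis). Ctrl replicate 3, the blue triangle, is the highest Ctrl library in each panel, and the NICeCA points lie clear of the Ctrl points only for Cd274 and Lgals9.

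The CD28 and CTLA-4 ligands Cd80 and Cd86 lie on chromosome 16, on opposite strands. Cd80 stood at 9.64, 6.75 and 21.3 RPKM in Ctrl and at 20.8, 20.7 and 17.6 RPKM in NICeCA. The NICeCA libraries were close to each other and lay near the level of Ctrl replicate 3, well above the other Ctrl libraries. The log2 fold change of Cd80 was 0.75 ± 0.34 (SE, interval -0.04 to 1.54, limma adjusted p = 0.16). Cd86 followed the same order of Ctrl libraries, with 11.0, 6.96 and 21.1 RPKM, against 17.3, 19.7 and 15.2 RPKM in NICeCA. Its groups overlapped in the same way, and its log2 fold change was 0.52 ± 0.33 (SE, interval -0.24 to 1.28, limma adjusted p = 0.29). The log2 ratio of Cd80 to Cd86 was -0.17, -0.04 and 0.01 in Ctrl and 0.25, 0.07 and 0.20 in NICeCA, so that Cd80 stood slightly higher relative to Cd86 in each NICeCA library. The difference was 0.24 (exact two-sided permutation p = 0.1, adjusted p = 0.133). Among the T cell receptors of these ligands, Cd28 had a log2 fold change of 0.03 (limma adjusted p = 0.95) and Ctla4 one of 0.36 (adjusted p = 0.53).

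Cd40, the receptor through which T cell help reaches antigen-presenting cells, had the lower mean in NICeCA. It stood at 6.01, 7.66 and 11.8 RPKM in Ctrl and at 6.05, 7.97 and 5.12 RPKM in NICeCA. Only NICeCA replicate 3 lay below the lowest Ctrl library, and the log2 fold change was -0.34 ± 0.24 (SE, interval -0.89 to 0.21, limma adjusted p = 0.34). Cd40lg, its ligand on T cells, was scarce at 0.462 to 2.85 RPKM in Ctrl and 0.570 to 1.20 RPKM in NICeCA. Of 13 genes of CD40 signaling, 1 was called higher and 2 lower. The survival gene Bcl2l1 was higher by 0.54 (limma adjusted p = 0.045), Map3k14, the kinase NIK of the noncanonical NF-kB pathway, was lower with a log2 fold change of -0.63 (adjusted p = 0.035), and the adaptor Traf5 was lower with -0.56 (adjusted p = 0.041).

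Lgals9 was the second gene whose groups did not overlap. It stood at 21.4, 15.8 and 22.6 RPKM in Ctrl and at 23.5, 27.0 and 30.8 RPKM in NICeCA. The gap between the highest Ctrl and the lowest NICeCA library was small beside the spread within each group. The means were 19.9 ± 3.60 and 27.1 ± 3.66 RPKM (SD, n = 3 each), and the log2 fold change was 0.43 ± 0.17 (SE, interval 0.04 to 0.82, limma adjusted p = 0.11). Havcr2, which encodes TIM-3, stood at 23.2, 12.5 and 24.8 RPKM in Ctrl and at 36.3, 31.0 and 20.6 RPKM in NICeCA. NICeCA replicate 3 fell between the Ctrl libraries, and the log2 fold change was 0.54 ± 0.29 (SE, interval -0.13 to 1.21, limma adjusted p = 0.22). The log2 ratio of Lgals9 to Havcr2 ran from -0.61 in NICeCA replicate 1 to 0.56 in NICeCA replicate 3, and the Ctrl ratios of -0.11, 0.32 and -0.13 lay between these values (difference -0.11, exact two-sided permutation p = 0.8).

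Sirpa, the macrophage receptor of CD47, was the most abundant of the 9 genes in each library. It stood at 95.4, 83.6 and 128 RPKM in Ctrl and at 131, 116 and 97.5 RPKM in NICeCA. The ranges overlapped over most of their width, and the log2 fold change was 0.18 ± 0.19 (SE, interval -0.26 to 0.62, limma adjusted p = 0.53). Cd47 was second in 5 of the 6 libraries, with 45.1, 32.1 and 57.9 RPKM in Ctrl and 64.5, 62.8 and 56.9 RPKM in NICeCA. Only NICeCA replicate 3 and Ctrl replicate 3 crossed, and the log2 fold change was 0.48 ± 0.21 (SE, interval 0.00 to 0.95, limma adjusted p = 0.14). The log2 ratio of Cd47 to Sirpa was -1.06, -1.35 and -1.13 in Ctrl and -1.02, -0.87 and -0.77 in NICeCA, a difference of 0.30 with separated groups (exact two-sided permutation p = 0.1, adjusted p = 0.133). Of 9 further genes of this axis, only Thbs1, the secreted CD47 ligand thrombospondin-1, was called. It stood at 396, 232 and 626 RPKM in Ctrl and at 1430, 1200 and 1760 RPKM in NICeCA, with a log2 fold change of 1.90 (limma adjusted p = 0.022).

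**Figure D2:**
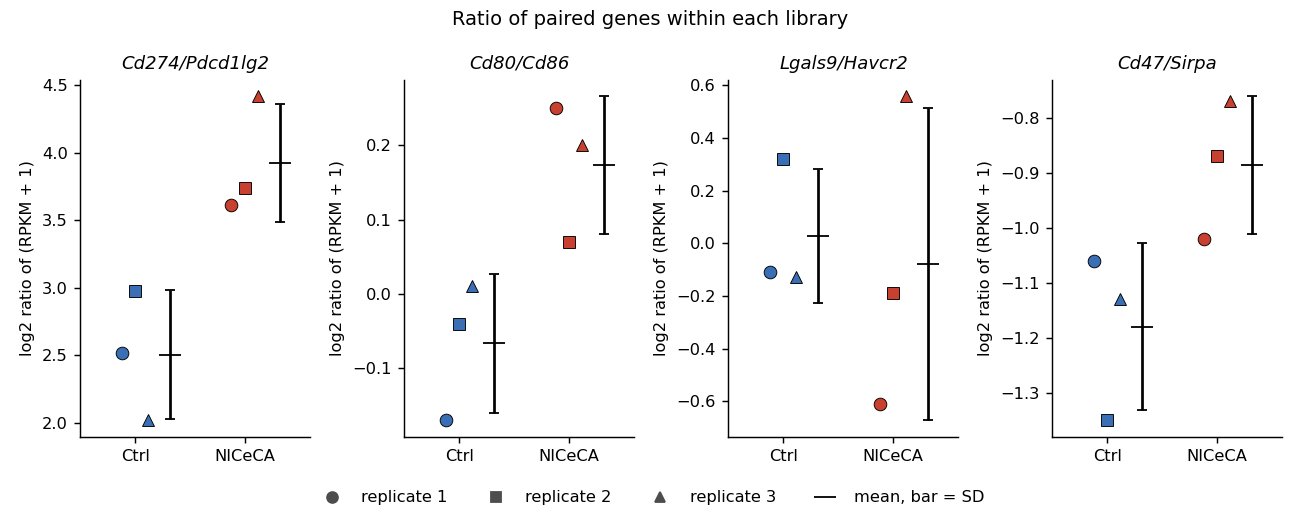
The log2 ratio of RPKM + 1 between 2 genes of a pair within each library, for the PD-1 ligands, the CD28 ligands, galectin-9 and TIM-3, and CD47 and SIRPα (blue Ctrl, red NICeCA, symbols for the replicate number, mean with SD beside the points; each panel has its own axis). The NICeCA ratios lie above the Ctrl ratios in 3 of the 4 pairs, of which Cd274/Pdcd1lg2 overlaps without the added 1, and straddle them for Lgals9/Havcr2. The gap between the groups is narrow for Cd80/Cd86 (0.01 against 0.07) and for Cd47/Sirpa (-1.06 against -1.02). How often ratios of other gene pairs separate was not computed. Of single genes, 16.5% had NICeCA above Ctrl without overlap and 24.4% below.

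Across the 9 genes, then, 0 passed the test in either direction, where 5.88% of all tested genes were called higher and 7.68% lower. At an unadjusted p under 0.05, 3 of the 9 (Cd274, Lgals9 and Cd47) passed, against 35.5% of all tested genes, and limma voom on recovered reads also called 0. The NICeCA libraries lay above the Ctrl libraries without overlap for 2 of 9, beside 16.5% of all tested genes, and below them for 0 of 9, beside 24.4%. These shares do not set the 9 genes apart from the background. The log2 fold change was positive for 7 and negative for 2, with a median of 0.48, where the median over all tested genes was -0.05 and 44.7% were positive. The order of the levels changed little: Sirpa was first and Pdcd1lg2 last in each library, while Cd274 moved from rank 5, 4 and 3 in Ctrl to rank 3, 3 and 2 in NICeCA. In NICeCA the ranges of Cd47 and Cd274 overlapped, as did those of Cd80 and Cd86, and in Ctrl Cd274, Lgals9 and Havcr2 could not be ordered beyond their spread.

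The spread among the Ctrl libraries was itself a pattern that the 9 genes shared, though not alone. Ctrl replicate 3 was the highest Ctrl library for 9 of 9, where 42.3% of all tested genes had their highest Ctrl value there. Ctrl replicate 2 was the lowest Ctrl library for 8 of 9, Cd40 being the exception, where 35.7% of all tested genes had their lowest Ctrl value, and for these 8 it was also the lowest of the 6 libraries. The highest Ctrl library exceeded the lowest by 3.27-fold for Cd274, 3.15-fold for Cd80 and 3.03-fold for Cd86, beside a median of 1.36-fold over all tested genes. Among the NICeCA libraries the same folds were 1.24, 1.18 and 1.30, near the median of 1.25 over all tested genes. Among Ctrl libraries, the mean log2(RPKM + 1) of each list of related genes was also highest in replicate 3 and lowest in replicate 2. For the lymphocyte receptor list, which also holds Cd40lg, these means were 2.47, 1.88 and 2.72 in Ctrl replicates 1 to 3. Dendritic, T and B cell markers kept this order. Macrophage and endothelial markers were highest in Ctrl replicate 1, and neutrophil and fibroblast markers were lowest there.

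Whether members were called depended on which Ctrl libraries entered, and for Cd274 also on the scaling and the rows tested. Without Ctrl replicate 3, 4 of the 9 were called higher, beside 7.41% of all genes tested in that fit: Cd274 with 1.82 (limma adjusted p = 0.00361), Cd80 with 1.19 (adjusted p = 0.0147), Cd86 with 0.91 (adjusted p = 0.0378) and Cd47 with 0.67 (adjusted p = 0.0499). Without Ctrl replicate 2, 0 were called, and the log2 fold changes of Cd80 and Cd86 came to 0.42 and 0.17. Calls were also few over all genes in that fit, with 244 higher and 135 lower of 12249 tested. With all 6 libraries they were 725 and 946 of 12320. With all 6 libraries, 1 was called higher (Cd274, 1.39, adjusted p = 0.0482) after each library had been scaled by its trimmed mean against the others, beside 8.51% of all tested genes. With the FANTOM3 transcript rows of the table in the fit it was also 1 (Cd274, 1.31, adjusted p = 0.0497), beside 4.33% of all rows tested. Over 18 alternative settings the limma adjusted p ran from 0.00361 to 0.293 for Cd274, from 0.0147 to 0.478 for Cd80, from 0.0378 to 0.705 for Cd86 and from 0.0499 to 0.552 for Cd47. There is no label that sets Ctrl replicate 3 apart from the other Ctrl libraries, so the fit of all 6 libraries remains the reported one.

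**Figure D3:**
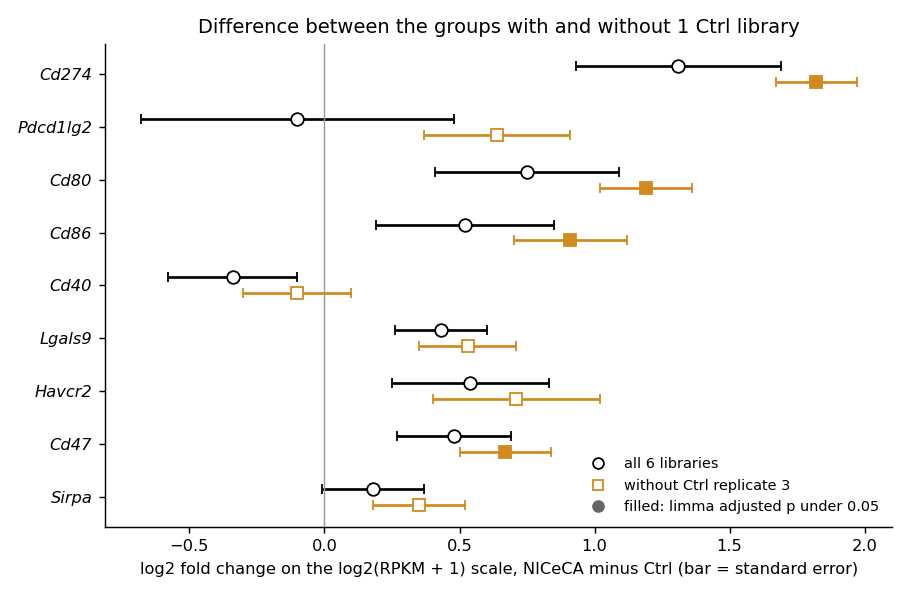
The log2 fold change of each gene with its standard error from limma, with all 6 libraries (black circles) and without Ctrl replicate 3 (orange squares); filled symbols have an adjusted p under 0.05. No gene is filled with all 6 libraries, and Cd274, Cd80, Cd86 and Cd47 are filled without Ctrl replicate 3.

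Levels of cell type markers also differed between the libraries, and their part in these differences was not tested. Fits with the macrophage or the endothelial marker mean as covariate are given below, and the neutrophil markers entered no such fit. With 6 libraries, such fits cannot tell a group difference from a difference in the mix of cells. Of the macrophage markers, Csf1r stood at 143, 115 and 159 RPKM in Ctrl and 143, 106 and 91.6 RPKM in NICeCA, and the surface receptor gene Adgre1 at 76.6, 55.7 and 61.9 and at 78.4, 61.2 and 35.6 RPKM. Those called higher were Cd68, at 148, 133 and 148 and at 272, 223 and 230 RPKM (0.75, limma adjusted p = 0.022), and Fcgr1, at 25.3, 27.9 and 35.7 and at 96.2, 87.1 and 75.5 RPKM (1.52, adjusted p = 0.0092), and the mannose receptor gene Mrc1 had 1.21 (adjusted p = 0.10) with separated groups. C1qa, C1qb and C1qc, which made up most of the macrophage sums, had -0.54, -0.41 and -0.53 (limma adjusted p = 0.26, 0.38 and 0.25). Over the 10 macrophage markers, the log2 fold change was positive for 4 and negative for 6, with a median of -0.15. The 10 dendritic cell markers summed to 38.0 to 73.7 RPKM in Ctrl, with the highest sum in Ctrl replicate 3, and to 57.6 to 71.6 RPKM in NICeCA, with 1 called higher and 1 lower. Among them, Itgax, the integrin CD11c, was high in Ctrl replicate 3, with 8.06, 6.18 and 26.8 RPKM in Ctrl and 14.4, 11.5 and 10.1 RPKM in NICeCA, whereas Flt3 at 1.35 to 2.90 RPKM and Zbtb46 at 2.24 to 3.44 RPKM were low in each library. Without Itgax the other 9 summed to 37.1, 31.9 and 46.9 RPKM in Ctrl and to 57.2, 49.9 and 47.5 RPKM in NICeCA. Of 9 neutrophil markers in the table, 7 were tested and 6 called higher, with sums of 117 to 269 RPKM in Ctrl and 594 to 1640 RPKM in NICeCA. Platelet markers summed to 108 to 178 and 897 to 1130 RPKM over 8 genes, nearly all of it Pf4, and 1 of the 3 tested was called higher. The T cell markers, 10 genes with 0 called, summed to 45.7 to 84.2 and 48.4 to 71.0 RPKM, and the B cell markers, 4 tested of 8 with 0 called, to 4.47 to 18.9 and 10.4 to 24.9 RPKM. Fibroblast and pericyte markers summed to 347 to 579 and 198 to 396 RPKM, with 1 called higher and 3 lower of 9 tested, and epithelial markers to 6.99 to 12.9 and 6.39 to 8.67 RPKM, with 1 called lower of 2 tested. No list had a marker at 0 in all 6 libraries. With the macrophage marker mean in the model, the log2 fold change of Cd274 was 1.32 (limma adjusted p = 0.09), and with the endothelial marker mean it was 1.34 (adjusted p = 0.29). The standard error of Cd274 was 0.38 without a covariate, 0.42 with the macrophage mean and 0.56 with the endothelial mean. With the endothelial mean, Cd80 (0.75 to 0.72), Sirpa (0.18 to 0.20) and Pdcd1lg2 (-0.10 to -0.13) also moved little. Some values moved more. With the endothelial mean, Lgals9 went from 0.43 to 0.22, Havcr2 from 0.54 to 0.27 and Cd40 from -0.34 to -0.13, and with the macrophage mean Havcr2 went to 0.34, Sirpa from 0.18 to 0.09 and Pdcd1lg2 from -0.10 to -0.27. With either covariate 0 members were called. Of 12320 genes tested, the macrophage covariate left 460 called higher and 575 lower. The endothelial covariate left 0 called, so that its count of 0 members says nothing of the 9 genes.

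Of 71 genes of related pathways, 66 were tested, 7 were called higher and 4 lower, which is 10.6% and 6.06% beside 5.88% and 7.68% of all tested genes. These lists were chosen with earlier results of these data known. Among 16 tested genes listed as other checkpoint and costimulation ligands, 4 were called higher and 1 lower, with a median log2 fold change of 0.24. That list also holds the enzyme gene Ido1. Tnfsf14, the costimulatory ligand LIGHT, stood at 6.26, 4.61 and 6.69 RPKM in Ctrl and at 27.0, 22.9 and 21.4 RPKM in NICeCA (log2 fold change 1.86, limma adjusted p = 0.0069). Tnfrsf14, its receptor HVEM, fell, from 16.1, 16.0 and 19.6 RPKM to 12.1, 11.5 and 10.1 RPKM (-0.57, adjusted p = 0.036). Cd24a, a surface protein that Siglec receptors can bind, was higher by 1.82 (adjusted p = 0.022). The pair of Tnfsf9 (4-1BB ligand) and its receptor Tnfrsf9 (4-1BB) was higher on both sides, and Tnfsf9 and Lgals3 are named here after their values were seen. Tnfsf9 stood at 11.2, 12.6 and 15.2 RPKM in Ctrl and 34.2, 31.7 and 34.8 RPKM in NICeCA (1.32, adjusted p = 0.0092). Tnfrsf9 stood at 13.0, 9.80 and 26.1 RPKM in Ctrl and 69.9, 82.1 and 83.2 RPKM in NICeCA (2.31, adjusted p = 0.011). It was the only gene called of the 17 in the lymphocyte receptor list, which also holds the ligand gene Cd40lg. Lgals3, which encodes galectin-3, was higher by 1.49 (adjusted p = 0.011). Pdcd1, the receptor of both PD-1 ligands, stood at 10.6 to 10.8 RPKM in Ctrl and 10.4 to 15.9 RPKM in NICeCA (0.26, adjusted p = 0.26).

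Of 11 genes for interferon-γ, its signaling and the handling of PD-L1, 0 were called higher and 1 lower, with a median of 0.08. Ifng itself was near the limit of the filter, with 0.895 to 1.74 RPKM in Ctrl and 1.20 to 2.09 RPKM in NICeCA. Irf1, a transcription factor of this pathway, had a log2 fold change of 0.02 (limma adjusted p = 0.94). Cmtm6, which protects PD-L1 from degradation, had 0.08 (adjusted p = 0.67), and its relative Cmtm4 was lower with -0.70 (adjusted p = 0.039).

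**Figure D4:**
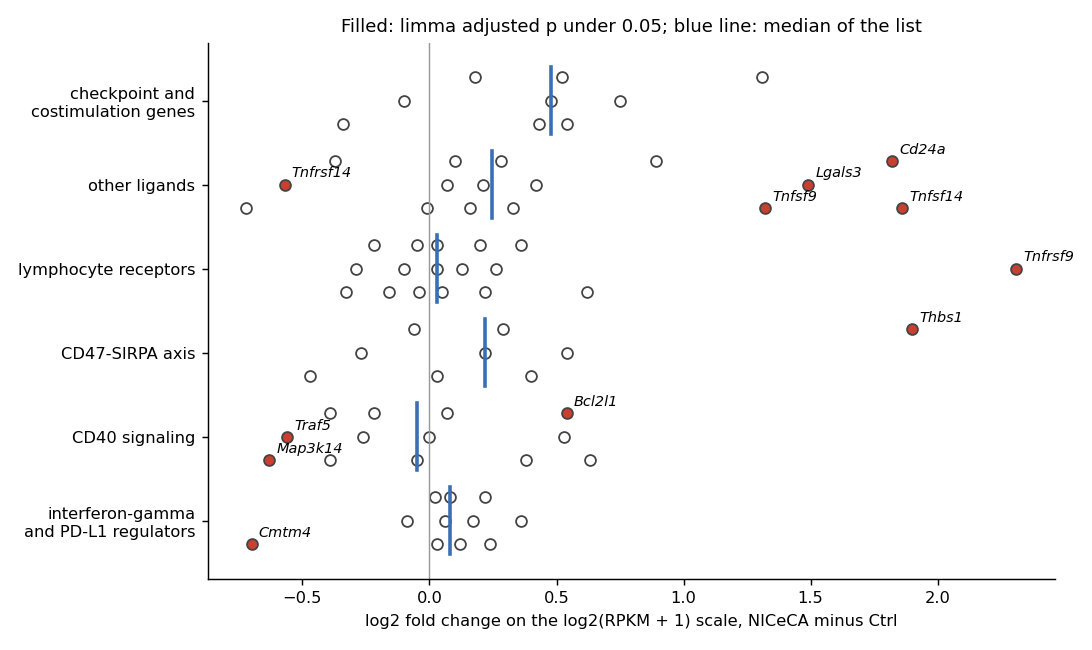
Log2 fold change, on the log2(RPKM + 1) scale, of each tested gene of 6 lists (1 point a gene, spread vertically for legibility), with the median of each list as a blue line; filled points have a limma adjusted p under 0.05 and carry their symbol. The row of 9 checkpoint and costimulation genes holds no filled point, while Tnfsf14, Cd24a, Lgals3, Tnfsf9, Tnfrsf9 and Thbs1 stand far to the right in their rows. The open point of Cd274 lies at 1.31 with a standard error of 0.38, close to Tnfsf9 at 1.32 with a standard error of 0.14.

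Over the 6 libraries, the genes whose log2(RPKM + 1) ran most alike with a member were named as a description, out of 8235 other genes with a mean of at least 5 RPKM (8236 for Pdcd1lg2). The coefficients are the highest of many over only 6 libraries, and each library is a mixture of cells. Cd274 ran most like Cdkn1a (Pearson r = 0.9967), the cell cycle inhibitor p21, followed by Rlf and Fem1c. Cdkn1a stood at 25.4, 23.6 and 44.5 RPKM in Ctrl and 49.0, 48.3 and 52.6 RPKM in NICeCA, with the same high Ctrl replicate 3 as Cd274. Pdcd1lg2 ran most like Trim14 (r = 0.9911), then Baz1a and Samhd1, of which Samhd1 stood at 73.8 RPKM in Ctrl replicate 3 and at 33.1 to 47.0 RPKM in the other libraries. Cd80 ran most like Smad4, Plaa and Slc25a46, and Cd86 like Ap3m1, Sh3glb1 and Tmem168. For Cd40 these were Rnmt, Camk2g and Fbxo34, and for Havcr2 Fbxo33, Pttg1ip and Tmub2. Hdc (r = 0.9908) and Nfkbiz were among the genes that ran most like Lgals9. Sirpa ran most like Gm2a, Rab14 and Btk, and Cd47 like F7 (r = 0.9977), Rnf139 and Slc38a2.

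The table also holds FANTOM3 transcript models, 8744 of which lie wholly inside annotated genes and touch no annotated exon. The reads of these 8744 came to 2.01, 2.36 and 2.67% of the RefSeq reads in Ctrl and to 1.13, 1.54 and 1.51% in NICeCA. Rows of this kind show reads over introns of some members. In Cd86, the intronic row B430203O05 stood at 1.66, 0.963 and 5.35 RPKM in Ctrl and at 2.08, 2.65 and 1.94 RPKM in NICeCA. The 2 intronic rows of Sirpa, 893 and 1520 bases long, and that of Cd47, 2108 bases long, also had their highest value in Ctrl replicate 3, with 8.56, 6.51 and 4.14 RPKM. For these 3 genes, Ctrl replicate 3 was thus the highest Ctrl library over introns as well as in the gene row. The log2 fold changes of these intronic rows were 0 for Cd86, -0.16 and -0.23 for Sirpa and -0.15 for Cd47. B430305P08 has 791 of its 791 bases in Cd47 exons of the current annotation. It spans chr16:49911462-49912252, while the Cd47 row ends at 49911683, so most of it lies past the gene model measured in that row. B430305P08 stood at 11.4, 8.54 and 12.4 RPKM in Ctrl and 10.3, 9.42 and 10.1 RPKM in NICeCA. Its log2 fold change was -0.09 (limma adjusted p = 0.70 over 23670 rows), and the further Cd47 row C230081D05 had -0.19 (adjusted p = 0.57). Cd274 has 2 rows that lie almost wholly in its first intron, and in both the NICeCA libraries lay above the Ctrl libraries. Another row over Cd274, an antisense model with 456 of its 4469 bases in exons, stood at 4.33, 2.99 and 12.8 RPKM in Ctrl and at 10.7, 11.9 and 14.5 RPKM in NICeCA, where the groups overlapped (log2 fold change 1.00, limma adjusted p = 0.11 over 23670 rows).

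**Figure D5:**
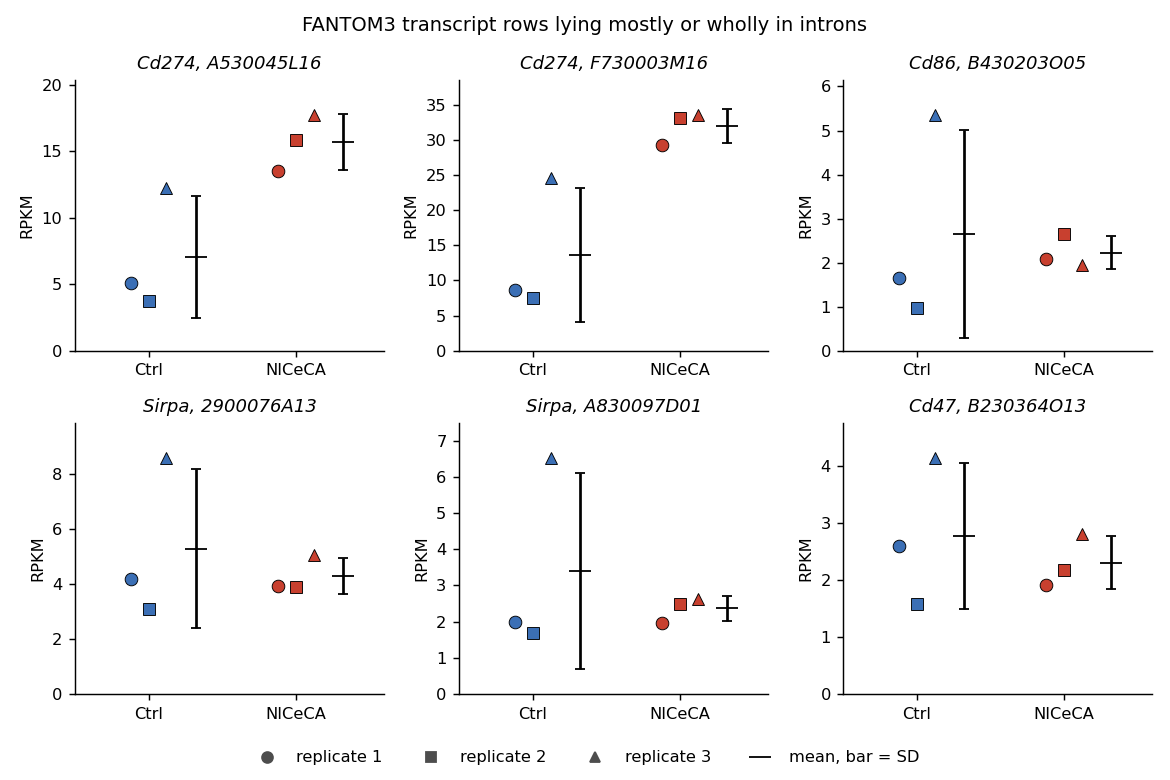
RPKM of 6 FANTOM3 rows on the strand of the gene that lie mostly (Cd274) or wholly (Cd86, Sirpa, Cd47) in introns, by library, with the mean and its SD beside the points. Ctrl replicate 3, the blue triangle, is the highest library in the Cd86, Sirpa and Cd47 panels, and the NICeCA libraries lie above it in the 2 Cd274 panels.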

How the data were processed

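Bulk RNA-seq of TECs from 3 Ctrl and 3 NICeCA mice was analysed, each library being matched to its group through its title and description. The authors deposited RPKM values per gene model and library, without pooling; ribosomal RNA had been depleted and paired reads of 150 bases sequenced. The submitters' processing notes name TopHat2 and mm9, whereas 99.4% of 21845 rows with a GENCODE M21 symbol overlap that gene on GRCm38, so positions are given on GRCm38. No source used here gives the counting tool or its strand setting.

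The design named limma on the log scale for RPKM. RefSeq rows with a mean of at least 1 RPKM were compared as log2(RPKM + 1) with limma 3.58.1 in R 4.3.3 (eBayes with trend, two-sided, Benjamini-Hochberg). FANTOM3 rows were left out, since many cover the same exons. Reads were recovered from the steps of the RPKM values and the row lengths, 100.0% of the steps checked being whole within 0.05 reads, for depth and for the voom alternative. Ratios within a library were compared with the exact permutation test. The procedure was tested on simulated data. The members and the lists were chosen with earlier results of these data known. Named are the 9 members, up to 2 called genes in each direction of each related list, defining markers, and the 3 genes most alike in pattern, except for items that are not reported here. Alternatives were the replicate block, leaving out each library, other scalings, filters and pseudocounts, no trend, length correction, marker covariates, ratios without a pseudocount and the FANTOM3 rows. Intervals and p-values cover the spread between these mice.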

Additional observations from a re-analysis of the deposited data

Results flagged for a closer look

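The 2 FANTOM3 rows F730003M16 and A530045L16, which are outside the comparison of RefSeq genes, lie in the first intron of Cd274 and carried a signal above that of the Ctrl libraries. A530045L16, with 47 of its 3114 bases in exons, stood at 5.09, 3.72 and 12.2 RPKM in Ctrl and at 13.5, 15.8 and 17.7 RPKM in NICeCA, a log2 fold change of 1.20 with a standard error of 0.33 (limma adjusted p = 0.049 over 23670 rows). F730003M16, with 41 of its 737 bases in exons, stood at 8.69, 7.56 and 24.6 RPKM in Ctrl and at 29.3, 33.2 and 33.6 RPKM in NICeCA, a log2 fold change of 1.36 with a standard error of 0.36 (limma adjusted p = 0.044 over 23670 rows). An antisense row over Cd274 had 1.00 (adjusted p = 0.11), with overlapping groups. The 2 first-intron rows overlap each other and are not independent of each other or of the Cd274 row. In the same fit the Cd274 row had 1.31 (adjusted p = 0.0497).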

How the results depend on the processing

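Of 161 alternative values for the log2 fold changes of the 9 genes, 150 kept their direction and their side of the threshold, as did 33 of 36 for the counts of members called. Of 32 for the ratios, 30 kept their direction, those without a pseudocount, added after seeing the data, among them. The number of members called higher, 0 with all 6 libraries, ran from 0 to 4 when 1 library was left out, the 4 coming without Ctrl replicate 3. It was 1 (Cd274, log2 fold change 1.39, limma adjusted p = 0.0482) with trimmed mean scaling, where 8.51% of genes were called higher, and 1 (Cd274, 1.31, adjusted p = 0.0497) with the FANTOM3 rows included, an alternative added after seeing the data, where 4.33% of rows were called higher. In no alternative was a member called lower. Pdcd1lg2 ran from -0.66 to 0.64 when 1 library was left out, with 0.64 without Ctrl replicate 3 and 0.08 without NICeCA replicate 3. It came to 0.01 with a pseudocount of 0.1 and to 0.01 with limma voom on recovered reads. Sirpa came to -0.18 with quantile normalization. The difference in the log2 ratio of Lgals9 to Havcr2 ran from -0.43 to 0.16 when 1 library was left out, with 0.04 without Ctrl replicate 2 and 0.16 without NICeCA replicate 1. The causes were not tested.

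Over all tested genes, 725 were called higher and 946 lower, against 1048 and 685 with trimmed mean scaling, 446 and 325 with quantile normalization, 683 and 1337 with voom, 587 and 247 with the length trend removed, 260 and 105 with no filter, 629 and 579 at a mean of 5 RPKM, 460 and 575 with the macrophage covariate, and 1026 and 2185 with the FANTOM3 rows. With the endothelial covariate limma called 0 genes, and 2107 had an unadjusted p under 0.05. Leaving out 1 library gave 17 to 911 higher and 1 to 832 lower, the fewest without NICeCA replicate 2. The methods speak of pairs of NICeCA and control mice without saying which libraries form a pair, and the tests reported above were unpaired. Deviations from the group means had correlations of 0.122, -0.343 and -0.178 for same-numbered libraries, which gives no sign of pairing by number. The highest correlation was 0.438, between Ctrl replicate 2 and NICeCA replicate 3. Pairing in another order was not tested. With the replicate number as a block, 0 members were called, the lowest adjusted p being 0.0517 for Cd274, and the counts over all genes were 327 and 209. Pdcd1lg2 has no value under the filter at a mean of 5 RPKM.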
